A study of Mus musculus with 2 samples.

Results

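The arterial-scoring tumour endothelial cells (ECs) described here are the cells, 280 from a PBS-treated and 106 from a cGAMP-treated tumour of 3857 ECs in 2 single-cell RNA sequencing (scRNA-seq) libraries, in which a set of 8 arterial genes was most highly expressed. For each EC, the deposited natural log values of Gja4, Gja5, Sema3g, Hey1, Efnb2, Stmn2, Mal and Nts were averaged, and the 10% of the pooled cells with the highest mean were taken. One library came from an implanted Lewis lung carcinoma (LLC) tumour that had been injected with PBS and held 2517 ECs. The other came from an LLC tumour injected with cGAMP, the cyclic dinucleotide that activates STING, and held 1340 ECs. Both hosts were adult mice on the C57BL/6 background with no engineered allele named, and each library was made from live CD31+ cells sorted from 1 mouse. The tumours were sampled a day after the injection. Since each condition is 1 library, the spread between mice is not measured, all values below describe these 2 libraries, and effects of treatment, mouse and library cannot be told apart. No test was made.

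Arterial ECs line the vessels that carry blood into a tissue. Their identity is set by VEGF and Notch signalling, with ligands such as Dll4 and Jag1 and target genes such as Hey1, and is held by sustained flow, which acts through factors such as Klf2. They display ephrin-B2 on their surface, whereas venous ECs carry its receptor EphB4, and they are coupled to each other by gap junctions made of connexins 37 and 40. In growing tumours most ECs belong instead to sprouting, capillary-like or venous-like vessels, and arterial ECs are a minority.

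The arterial-scoring ECs numbered 280 of 2517 cells in the PBS library, which is 11.1% (95% interval 9.92 to 12.4), and 106 of 1340 cells in the cGAMP library, which is 7.91% (6.52 to 9.49). These intervals are exact binomial (Clopper-Pearson) ones and cover counting error only, as do all intervals below except those of list medians. The shares follow from the genes that chose the cells. The median score was 0.867 in the PBS and 0.730 in the cGAMP members, against 0.0624 and 0.0371 in the other cells. The last cell taken had a score of 0.448424 and the first one left out 0.448031, so no gap separates them. The 10 cells just inside that limit had between 3 and 7 of the 8 genes detected, and the 10 just outside had between 2 and 6. In the PBS library 203 members (72.5%) had 5 or more of the 8 genes with a UMI (a unique molecular identifier, which marks 1 captured RNA molecule), as had 73 members (68.9%) in the cGAMP library. Among the other cells 1.34% and 2.11% reached 5 genes. All 8 genes were found in 34 PBS members and in 1 cGAMP member.

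The members held fewer RNA molecules than the other ECs of the same library, with a median of 19970.5 against 31123 UMIs per cell in the PBS library and 27642.5 against 42598.5 in the cGAMP library. Their median mitochondrial share was 4.76% against 4.45% in the PBS library and 2.87% in both groups of the cGAMP library. The libraries shared 1 cell barcode, which belonged to no member. Summed over the cells of a group, the depth behind the values was 7158801 UMIs in the PBS and 3212539 in the cGAMP members. Levels are given below as CPM, the UMIs of a gene scaled to the same total in every group, with exact Poisson 95% intervals. Differences are log2 ratios of CPM with exact conditional 95% intervals, and a gene was counted as higher or lower only where it differed at least 2-fold and reached 20 CPM on either side. Shares of cells with a UMI of a gene were taken after each cell had been thinned to 5000 UMIs, which left out 14 PBS and 2 cGAMP members with fewer, because deeper cells show more genes. With no test behind them, counts of genes past 2-fold are descriptions.

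The genes of the score span connexins, guidance cues and neuronal-type genes. Gja4 and Gja5 encode connexins 37 and 40, Sema3g a secreted semaphorin, Hey1 a Notch target and transcriptional repressor, and Efnb2 the arterial ligand ephrin-B2. Stmn2 encodes a regulator of microtubules, Mal a membrane raft protein and Nts the vasoactive peptide neurotensin. On mouse GRCm38 (GENCODE vM21), Gja4 lies on chromosome 4 at 127311421 to 127314039, Gja5 on chromosome 3 at 96904693 to 97077416 and Nts on chromosome 10 at 102481756 to 102490486, and each position covers the whole gene. As the score was built from these genes, their high level in the members is what the choice of cells fixed. Gja4 stood at 584 CPM (566 to 602) in the PBS members against 7.15 (6.59 to 7.74) in the other cells, and at 347 (327 to 368) against 5.09 (4.53 to 5.69) in the cGAMP library. Gja5 was measured at 139 against 0.506 CPM in the PBS and 124 against 0.615 CPM in the cGAMP library, so that it was almost absent outside the members. Nts had 1511 CPM in the PBS members and 785 CPM in the cGAMP members, with 14.7 and 9.28 CPM in the other cells. Hey1 and Efnb2 were also present outside, with Hey1 at 184 against 22.9 CPM and Efnb2 at 334 against 54.0 CPM in the PBS library.

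The members were not uniform in these genes. After thinning, Gja4 was found in 72.2% of PBS and 72.1% of cGAMP members and Efnb2 in 76.7% and 65.4%, whereas Mal was found in 23.3% and 12.5%, Gja5 in 31.2% and 26.9% and Nts in 48.1% and 34.6%. In the other cells of the same libraries Gja4 was found in 2.57% and 2.04%, Gja5 in 0.321% and 0.245% and Nts in 3.76% and 3.19%. The members were chosen by these genes, so the shares follow from the choice and are given as a description. Across the 280 PBS members the per-cell levels of Nts had a lower quartile of 0, a median of 1.07 and a highest value of 198.6 UMIs per 10000. For Gja4 the quartiles were 1.42, 4.02 and 9.61 UMIs per 10000, a narrower range.

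**Figure D1:**
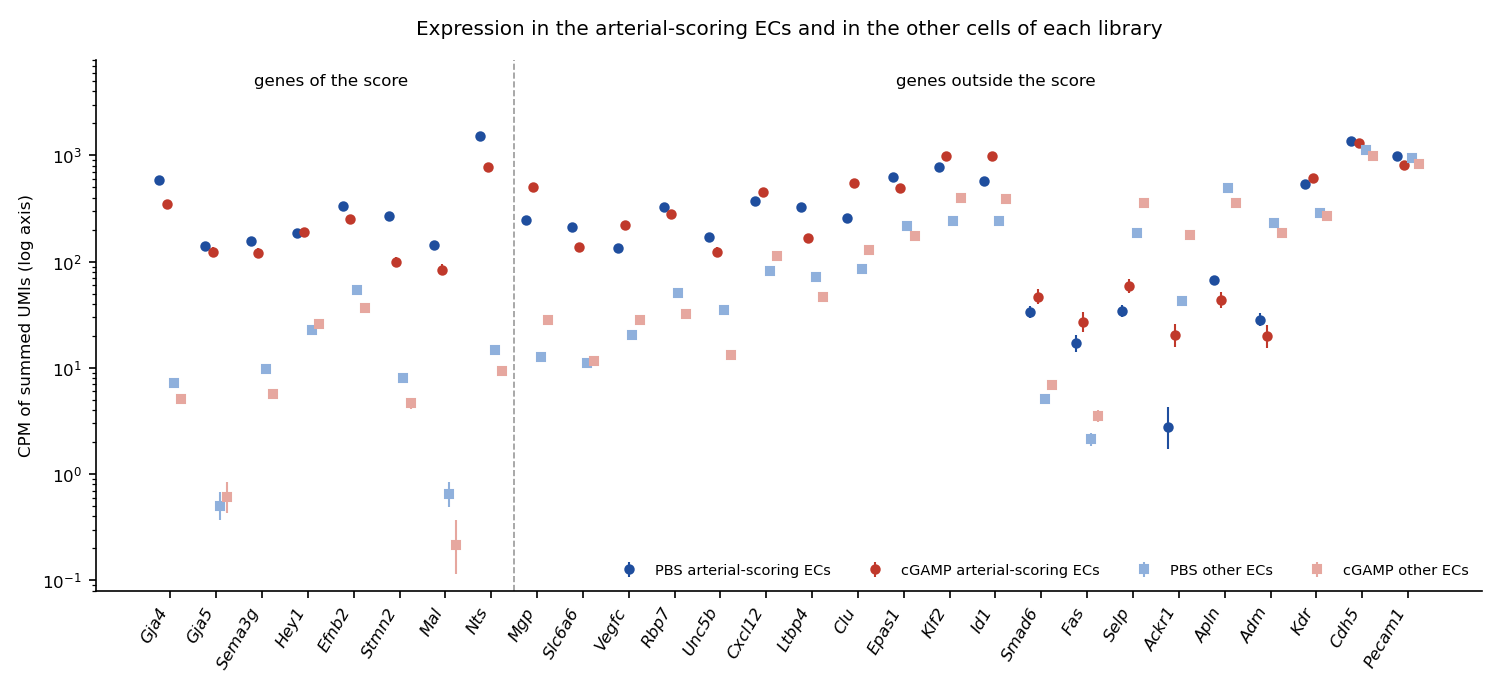
CPM of summed UMIs (log axis) of the 8 genes of the score and of 20 genes outside it, in the arterial-scoring ECs (circles) and the other ECs (squares) of the PBS (blue) and cGAMP (red) library, with exact Poisson 95% intervals as bars, most of them smaller than the symbols. Mgp, Cxcl12 and Klf2 lie higher in the members of both libraries, Selp, Ackr1, Apln and Adm lower, and Pecam1 lies at nearly the same level in all groups.

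The label was compared with arterial genes that had no part in the score. This list was chosen with earlier results of these data known, so it is not an independent check of the label. Of the 34 genes of the list 33 were measured, and 26 in the PBS and 25 in the cGAMP library reached 20 CPM on either side. Of these, 16 and 15 were at least 2-fold higher in the members and 0 were 2-fold lower. Across all genes that reached this level, 3.63% were 2-fold higher in the PBS members (227 of 6247) and 3.69% in the cGAMP members (222 of 6013). The median log2 ratio of the list was 1.43 in the PBS and 1.49 in the cGAMP library, against 0.01 and 0.03 for all genes. Between the libraries, 14 genes of the list were 2-fold higher in both, against 2.53% of all 5760 genes reaching 20 CPM in both. The exception in direction was Cxcr4, the receptor of Cxcl12, with log2 ratios of -0.63 and -0.76.

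The values of some genes of this list follow, beginning with secreted factors. Vegfc, a ligand of the receptors VEGFR-2 and VEGFR-3, had 135 CPM (126 to 144) in the PBS members against 20.4 (19.5 to 21.4) outside and 220 (204 to 237) against 28.4 (27.1 to 29.8) in the cGAMP library. Cxcl12, the chemokine that arterial endothelium presents, had 375 CPM (361 to 389) against 82.0 (80.0 to 83.9) and 458 (434 to 482) against 113 (110 to 116). In both libraries the intervals of members and other cells were far apart for these genes. Unc5b, a netrin receptor, had log2 ratios of 2.28 (2.18 to 2.37) and 3.22 (3.04 to 3.40), and Dkk2, a secreted regulator of Wnt signalling, 2.46 and 2.91. Rbp7, which binds retinoids, stood at 324 against 50.3 CPM and at 284 against 31.9 CPM. The endothelial tyrosine kinase Bmx, which marks arterial endothelium, had 37.4 CPM in the PBS members and 1.08 CPM outside, and 14.3 and 0.582 CPM in the cGAMP library, where it did not reach 20 CPM.

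Transcription factors and matrix genes of the same list were also higher. Sox17, an arterial transcription factor, had log2 ratios of 1.29 in the PBS and 1.19 in the cGAMP library, and Epas1, which encodes the hypoxia-inducible factor HIF-2α, 1.54 and 1.49. Ltbp4, a binding protein of latent TGF-β in elastic fibres, differed by 2.17 and 1.84 on the log2 scale, and Fbln5, another elastic fibre protein, by 1.16 and 2.01. Clu, a secreted chaperone, had 257 against 85.5 CPM in the PBS and 548 against 129.5 CPM in the cGAMP library. Slc6a6, the taurine transporter, had 212 against 11.2 CPM and 137 against 11.6 CPM.

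Mgp, the matrix Gla protein that inhibits BMP signalling and calcification, was the gene of this list with the most uneven distribution among members. Its level was 249 CPM (237 to 260) in the PBS and 505 (481 to 530) in the cGAMP members, against 12.7 and 28.5 CPM in the other cells. Only 31 of 280 PBS members and 13 of 106 cGAMP members had a UMI of Mgp without thinning, and the highest cell held 26.9% and 27.6% of the UMIs. A small group of members thus carried the level. By contrast, Cxcl12 was found in 56.4% and 63.5% of the thinned members, against 17.3% and 19.0% of the other cells, and Vegfc in 40.2% and 48.1% against 8.99% and 11.4%.

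Some pairs of genes varied together from member to member. Over the natural log values of the 280 PBS and 106 cGAMP members, Pearson's r of Mgp with Bmx was 0.44 and 0.52, with Clu 0.44 and 0.38 and with Fbln5 0.40 and 0.41. The r of Mgp with Cxcl12 was 0.03 and -0.15, and with Igfbp3 it was -0.28 and -0.36. Igfbp3, which binds insulin-like growth factors, and Gpihbp1, which anchors lipoprotein lipase on capillary endothelium, had r of 0.53 and 0.59. The flow-responsive factors Klf2 and Klf4 had r of 0.54 and 0.48. Cells of 1 library share its depth and preparation, so these are descriptions over cells of 1 mouse each. The members with Mgp tended to have Bmx, Clu and Fbln5 and to have less Igfbp3.

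**Figure D2:**
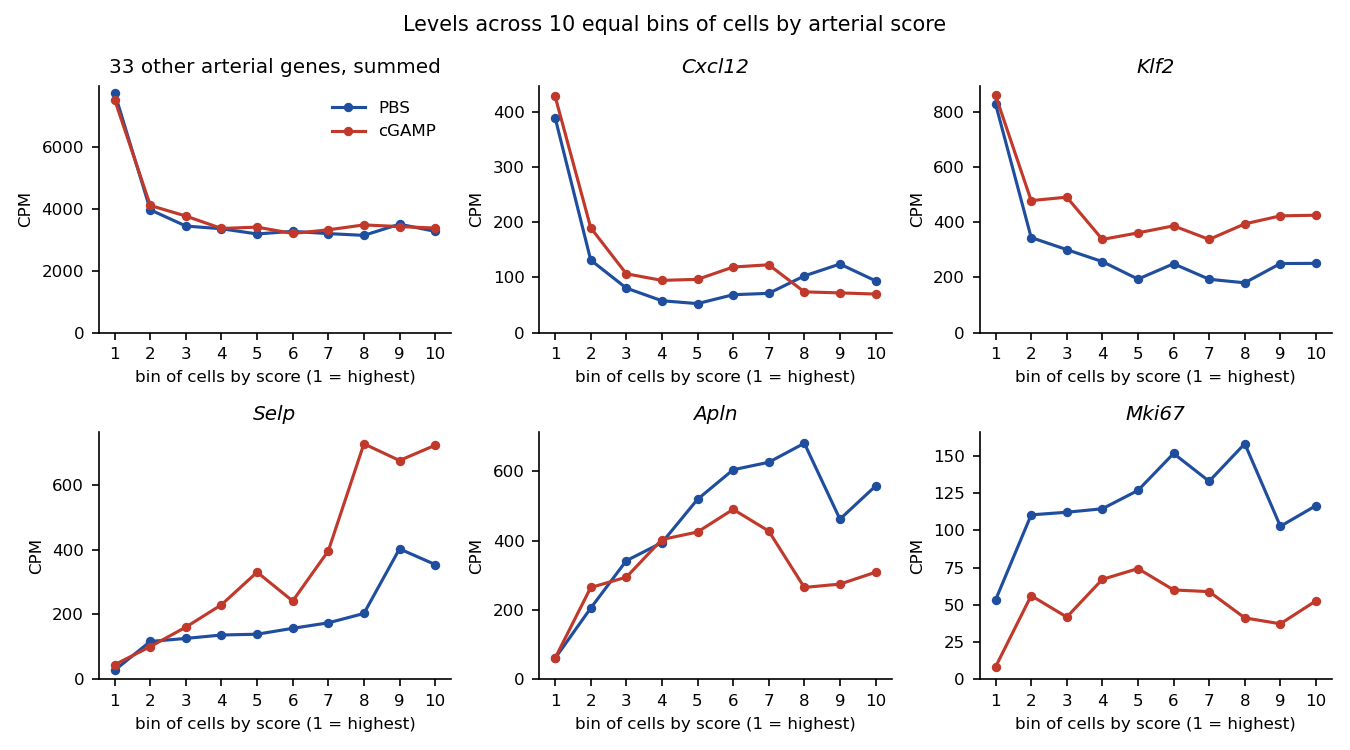
CPM of summed UMIs in 10 equal bins of each library ranked by the arterial score (bin 1 has the highest scores), for the PBS (blue) and cGAMP (red) library. The 33 other arterial genes, Cxcl12 and Klf2 are highest and Selp, Apln and Mki67 lowest in bin 1. The last bins hold cells with a score of 0, whose order is arbitrary.

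The plot of levels by bin of the score showed where these differences lay along the ranking. The summed level of the 33 other arterial genes was 7749 CPM in bin 1 of the PBS library, 3972 CPM in bin 2 and between 3146 and 3508 CPM in the other bins. In the cGAMP library it was 7535 CPM, 4113 CPM and between 3207 and 3770 CPM. Most of the excess was therefore in bin 1 of both libraries. Apln increased more gradually along the ranking, from 60.2 CPM in bin 1 through 205 and 342 CPM in bins 2 and 3 of the PBS library. In the cGAMP library it had 60.7, 265 and 294 CPM.

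Genes outside the lists also separated the members. Ranked by the library in which a gene differed less, the 12 genes with the largest log2 ratios were 6 genes of the score, the arterial genes Mgp and Slc6a6, and St8sia6, Pcp4l1, Lama3 and Smpdl3a. St8sia6, a sialyltransferase, had 74.3 against 4.96 CPM in the PBS and 54.5 against 3.72 CPM in the cGAMP library. Pcp4l1, a small protein related to a calmodulin regulator, had 45.1 (40.3 to 50.3) against 2.44 CPM (2.12 to 2.79) in the PBS library and 117 CPM (105 to 129) in the cGAMP members, with log2 ratios of 4.21 and 3.28. Lama3, a laminin chain, had log2 ratios of 3.22 and 3.62, and Smpdl3a, a phosphodiesterase, of 3.13 and 3.16. These 4 genes ranked beside the arterial markers although no list had named them.

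Genes of the Notch list outside the score differed in both directions. With Hey1 left out, 13 genes of the Notch list in the PBS and 14 in the cGAMP library reached 20 CPM, of which 8 and 10 lay above the other cells and 5 and 4 below them. In each library 2 were 2-fold higher and 0 lower, against 3.63% and 3.69% of all genes 2-fold higher, and the medians of the list were 0.35 and 0.22 on the log2 scale. Jag2, a Notch ligand, had 126 CPM (118 to 135) in the PBS members against 46.7 (45.3 to 48.2), and 92.5 (82.2 to 104) against 27.8 (26.5 to 29.2) in the cGAMP library. The ligand Jag1 passed 2-fold in the PBS library alone, with log2 ratios of 1.36 and 0.30, and Dll4 in the cGAMP library alone, with 0.75 and 1.08. The receptors Notch1 and Notch4 were higher by 0.84 and 0.71 on the log2 scale in the PBS and by 0.83 and 0.89 in the cGAMP library. The target gene Hes1 did not share this direction in the PBS library, with log2 ratios of -0.34 and 0.06, and Nrarp, a feedback inhibitor of Notch, had 0.53 and 0.77.

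Of the ephrin and guidance list without the genes of the score, 14 genes reached 20 CPM in each library. Of these, 4 in the PBS and 3 in the cGAMP library were 2-fold higher in the members, against 3.63% and 3.69% of all genes. In the PBS library 10 lay above and 4 below the other cells, with a median log2 ratio of 0.23. In the cGAMP library 11 lay above and 3 below, with a median of 0.29, and Sema3a was 2-fold lower. The ephrin ligands Efna1 and Efnb1 were 2-fold higher in both libraries, with log2 ratios of 1.32 and 1.32 in the PBS and 1.19 and 1.44 in the cGAMP library. Ephb4, the receptor of ephrin-B2 and a venous marker, was not lower in the members, with 77.0 against 42.4 CPM and 51.4 against 38.7 CPM. Of the junction genes outside the score, 0 of 10 in the PBS and 0 of 9 in the cGAMP library passed 2-fold. Gja1, which encodes connexin 43, had log2 ratios of 0.25 and 0.63, and the tight junction gene Cldn5 -0.12 and -0.36. Connexin 43 was found in most cells on either side.

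Part of the flow and vasoactive list was higher in the members of both libraries. Klf2, a transcription factor induced by laminar flow, had 780 CPM (760 to 801) in the PBS members against 241 (238 to 245), and 995 (961 to 1030) against 402 (397 to 407) in the cGAMP library. Klf4, its relative, had log2 ratios of 1.71 and 1.37. Thbd, the anticoagulant receptor thrombomodulin, had 1.53 and 1.61, Ednrb, an endothelin receptor, 1.12 and 1.15, and Ace, the angiotensin-converting enzyme, 1.45 and 1.22. In all, 5 of 17 genes of the list in the PBS and 6 of 17 in the cGAMP library were 2-fold higher without Nts, against 3.63% and 3.69% of all genes. In each library 12 lay above and 5 below the other cells, with medians of 0.35 and 0.47 on the log2 scale. Of the genes below, 2 in the PBS and 3 in the cGAMP library were 2-fold lower, against 3.27% of all genes lower in the PBS (204) and 3.24% in the cGAMP library (195). The lower ones included Adm, the vasodilator adrenomedullin, and Ptgs1, a cyclooxygenase. Nos3, the endothelial nitric oxide synthase, and Edn1, endothelin 1, differed little, with log2 ratios of 0.39 and 0.47 and of 0.21 and 0.19. The 10 immediate early genes were all higher in the members, with 2 past 2-fold in each library and medians of 0.80 and 0.76 on the log2 scale. The part of tissue dissociation in the immediate early genes was not tested.

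Of the list of VEGF, TGF-β and Wnt signalling, 8 of 30 genes were 2-fold higher in the PBS and 13 of 31 in the cGAMP members, against 3.63% and 3.69% of all genes, and 2 and 1 were 2-fold lower. Sox17, Dkk2, Cxcl12 and Vegfc, which were 2-fold higher in both libraries, also stand in the list of other arterial genes counted above. Id1 and Id3, targets of BMP signalling, had log2 ratios of 1.26 and 1.24 in the PBS and 1.35 and 1.05 in the cGAMP library, and the inhibitory Smad6 2.72 and 2.77. Kdr, the main VEGF receptor, had 540 against 290 CPM in the PBS and 619 against 272 CPM in the cGAMP library, and so passed 2-fold in the cGAMP library alone. Fzd6, a Wnt receptor, had log2 ratios of 1.53 and 1.59. Pgf, the placental growth factor, was 2-fold lower in both libraries, with 46.2 against 254 CPM and 4.05 against 157 CPM.

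**Figure D3:**
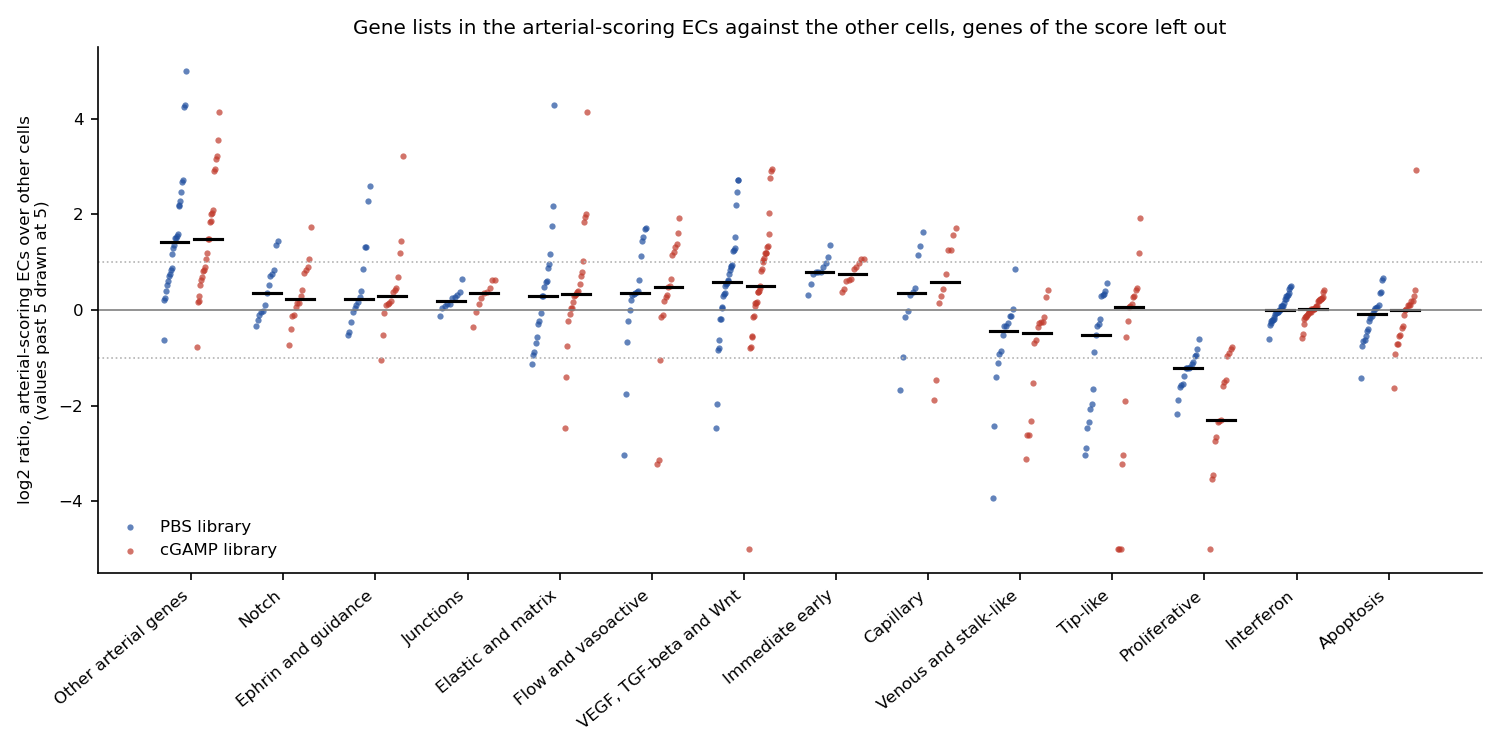
Log2 ratio of CPM, arterial-scoring ECs over other ECs, for each gene with 20 CPM on either side (1 point per gene), by gene list and library (blue, PBS and red, cGAMP), with the genes of the score left out. Black bars are medians and dotted lines mark 2-fold. The median of the other arterial genes lies at 1.43 and 1.49, that of the interferon list at 0.00 and 0.02, and the proliferative genes all lie below 0.

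Some markers of venous and of tip-like ECs were lower in the members. Across all genes, 3.27% were 2-fold lower in the PBS (204 of 6247) and 3.24% in the cGAMP members (195 of 6013). In both libraries 2.17% were 2-fold lower (125 of 5760). Of 14 venous and stalk-like genes in each library, 4 in the PBS and 5 in the cGAMP library were 2-fold lower and 0 higher. Of 13 that reached 20 CPM in both libraries, 3 were 2-fold lower in both. Selp, the adhesion molecule P-selectin, had 34.5 CPM (30.3 to 39.1) against 186 (183 to 189) in the PBS library and 59.1 (51.0 to 68.2) against 360 (355 to 364) in the cGAMP library. In the cGAMP members 1 cell held 63.2% of its UMIs. Ackr1, the venular chemokine receptor, had 2.79 against 42.6 CPM and 20.5 against 179 CPM, with 89.4% of the 66 UMIs of the cGAMP members in 1 cell. Nr2f2, the venous transcription factor COUP-TFII, had log2 ratios of -1.11 and -2.32. Vwf, which encodes von Willebrand factor, had 0.02 and -0.14, so the list was not uniform.

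Of 17 tip-like genes in each library, 7 in the PBS and 6 in the cGAMP library were 2-fold lower in the members, and 0 and 2 were 2-fold higher. Across all genes 3.27% and 3.24% were 2-fold lower and 3.63% and 3.69% 2-fold higher. In the PBS library 5 lay above and 12 below the other cells, with a median log2 ratio of -0.52, whereas in the cGAMP library 9 lay above and 8 below, with a median of 0.07. Apln, the tip cell ligand apelin, had 66.9 CPM (61.1 to 73.2) against 496 (491 to 501) and 43.9 (36.9 to 51.8) against 356 (351 to 361). Adm had log2 ratios of -3.02 and -3.22, and Trp53i11 of -2.07 and -1.91. Angpt2, a vessel-destabilizing ligand of the receptor Tie2, had log2 ratios of -1.97 in the PBS and -0.56 in the cGAMP library. Igfbp3 went the other way, with 0.56 and 1.18. Of 10 capillary genes in each library, 3 in the PBS and 4 in the cGAMP library were 2-fold higher, against 3.63% and 3.69% of all genes. Another 1 and 2 were 2-fold lower, against 3.27% and 3.24% of all genes, and the list medians were 0.35 and 0.59. Cd36, a fatty acid transporter, had log2 ratios of 1.16 and 1.25, Cd300lg 1.63 and 1.73 and the transcription factor Tcf15 1.34 and 1.57. The receptor tyrosine kinase Kit went the other way, with -1.68 and -1.88. In the cGAMP library alone Gpihbp1 was 2-fold higher and Car4 2-fold lower.

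Genes of the cell cycle were lower in the members throughout. Of 16 proliferative genes in the PBS and 15 in the cGAMP library, 12 and 11 were 2-fold lower and 0 were higher, with medians of -1.22 and -2.31 on the log2 scale. Across all genes 3.27% and 3.24% were 2-fold lower. Mki67, the proliferation marker, had 54.9 CPM (49.6 to 60.6) against 128 (125 to 130), and 8.72 (5.79 to 12.6) against 54.7 (52.9 to 56.6). After thinning, 34 of 266 PBS members (12.8%, 95% interval 9.02 to 17.4) and 3 of 104 cGAMP members (2.88%, 0.599 to 8.199) had a UMI of Mki67 or Top2a. In the other cells these shares were 29.3% (27.4 to 31.3) and 19.7% (17.51 to 22.05). A lower share of members than of other cells thus carried these transcripts in each library.

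The remaining genes with the lowest ratios in both libraries included inflammatory and metabolic ones. Ccl2, a monocyte chemokine, had 18.9 against 217 CPM in the PBS and 9.03 against 262 CPM in the cGAMP library. Odc1, the first enzyme of polyamine synthesis, had 30.6 against 191 CPM and 39.5 against 266 CPM. The metallothionein Mt2, the matrix protein Tgfbi and the transporter Slc16a6 had log2 ratios between -2.28 and -2.85. Fas, a death receptor, went the other way, with 17.0 CPM (14.2 to 20.3) in the PBS members against 2.12 (1.82 to 2.45) and 27.1 (21.7 to 33.4) against 3.54 (3.08 to 4.05) in the cGAMP library. Ripk3, a kinase of necroptosis, had 29.2 against 78.2 CPM and 28.9 against 89.5 CPM. Of the apoptosis list, 0 of 20 genes were 2-fold higher in the PBS members and 1 of 19 in the cGAMP members, and 1 was lower in each. Across all genes 3.63% and 3.69% were 2-fold higher and 3.27% and 3.24% 2-fold lower, so these counts lie near the shares of all genes. Fas did not reach 20 CPM in the PBS library and was not counted there.

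Endothelial markers were kept in the members. Cdh5, VE-cadherin, was found in 100% of thinned members in both libraries, and Pecam1, which encodes CD31, had 990 against 940 CPM in the PBS and 807 against 825 CPM in the cGAMP library. Markers of leucocytes summed to 27.5 CPM in the PBS members and 29.0 CPM in the other cells, and to 67.2 and 81.1 CPM in the cGAMP library, and Ptprc, which encodes CD45, was found in 1 member of each library. Fibroblast markers summed to 8.80 and 2.80 CPM in the members, and keratins with Epcam to 3.35 and 0 CPM. Mural markers summed to 91.1 and 100.2 CPM in the members against 85.6 and 91.9 CPM outside. Tagln, Kcnj8 and Abcc9 made up much of them, and in the PBS members Acta2, which had 36.7 CPM with 47.5% of its UMIs in 1 cell. The haemoglobin genes summed to 284 CPM in the PBS members, with 99.4% of the UMIs of Hbb-bs in 1 cell, and to 0.623 CPM in the cGAMP members. The part of such cells in the gene differences was not tested.

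The second question was how the members of the cGAMP library differed from those of the PBS library. Of 6155 genes with 20 CPM in either, 128 (2.08%) were 2-fold higher and 119 (1.93%) 2-fold lower in the cGAMP members. In the other cells it was 103 (1.71%) and 77 (1.28%) of 6023. The members of the cGAMP library had higher levels of interferon-stimulated genes, antigen presentation genes of MHC class I and the chemokines Ccl5 and Cxcl9, and lower levels of part of the cell cycle genes. Because fewer cells of a subtype and less RNA per cell are read from the same sums, the 2 cannot be told apart for genes found in few members.

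Interferon-stimulated genes were higher in the cGAMP members across the list. All 32 genes of the list with 20 CPM were higher, 20 of them 2-fold, with a median log2 ratio of 1.36 against -0.03 for all genes. In the other cells it was 32 of 32, 21 and 1.43. Across all genes 2.08% were 2-fold higher in the members and 1.71% in the other cells. Of the 12 genes under 2-fold 3 changed sign under an alternative, for example Rsad2 (0.43) without cells with a UMI of Mki67 or Top2a (-0.22) and Cmpk2 (0.34) with the mean of per-cell CPM (-0.07). Irf7, the transcription factor that amplifies type I interferon production, had 113 CPM (106 to 122) in the PBS and 762 CPM (732 to 792) in the cGAMP members, and 80.2 and 645 CPM in the other cells. Isg15, a ubiquitin-like protein, had 296 (284 to 309) and 935 CPM (902 to 969) in the members and 243 and 808 CPM outside. The intervals of PBS and cGAMP members did not overlap for either gene. The membrane protein Bst2, which tethers budding viruses, had a log2 ratio of 1.74 (1.68 to 1.79) in the members and 1.69 in the other cells, the GTPase Irgm1 2.37 (2.16 to 2.59) and 2.13, and Zbp1, a sensor of Z-form nucleic acid, 2.74 (2.47 to 3.02) and 2.56. The RNA sensor Ddx58 had 0.39 in the members and 0.41 outside.

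Upstream sequences of 3 of these genes are shown, picked as 2-fold higher in the members and holding the core of the interferon-stimulated response element. Factors activated by interferon bind this element. The windows of Irf7, Oasl1, Oasl2, Ifi44 and Xaf1, which were also 2-fold higher in the members, had 0 matches. Each run gives the 250 bases before the start site on the strand of the gene, from RefSeq on GRCm38.p6, with matches to GAAANNGAAA in capitals. Both strands were searched, and overlapping matches form 1 run of capitals. The window of Isg15 is chr4:156200819-156201068 (minus strand), that of Irgm1 chr11:48871421-48871670 (minus strand) and that of Bst2 chr8:71537473-71537722 (minus strand).
Isg15: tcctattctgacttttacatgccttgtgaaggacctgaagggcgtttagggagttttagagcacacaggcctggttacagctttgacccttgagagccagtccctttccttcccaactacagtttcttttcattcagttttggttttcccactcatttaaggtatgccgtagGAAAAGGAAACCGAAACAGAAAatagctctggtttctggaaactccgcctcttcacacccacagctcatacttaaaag
Irgm1: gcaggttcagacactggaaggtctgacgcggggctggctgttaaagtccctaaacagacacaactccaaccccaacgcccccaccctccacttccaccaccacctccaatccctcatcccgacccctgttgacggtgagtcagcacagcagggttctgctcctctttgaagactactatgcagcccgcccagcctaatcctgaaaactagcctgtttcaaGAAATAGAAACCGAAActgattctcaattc
Bst2: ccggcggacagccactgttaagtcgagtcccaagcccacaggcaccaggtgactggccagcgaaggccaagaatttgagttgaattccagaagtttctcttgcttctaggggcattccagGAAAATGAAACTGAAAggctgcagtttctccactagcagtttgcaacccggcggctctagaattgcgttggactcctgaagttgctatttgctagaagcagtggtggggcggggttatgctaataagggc
In windows that also hold the first 50 transcribed bases, the motif was found in 1131 of 32851 promoters (3.44%) and in 17 of 30 windows of the interferon list (56.7%), which cover 26 of its 36 genes. It was found in 0 of 6 windows of the score genes, of which Hey1 and Stmn2 had no entry. TGGGAA, the core bound by the Notch effector RBPJ, was found in 1 of these 6 windows, in 8 of 33 windows of the other arterial genes (24.2%) and in 25.6% of all. A match describes the letters of the window and is not a measured binding site.

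The interferon list did not distinguish the members from the other cells of their own library. Its median log2 ratio, members over other cells, was 0.00 in the PBS and 0.02 in the cGAMP library, and 0 of 29 and 0 of 32 genes passed 2-fold. Isg15 differed by 0.29 and 0.21, Irf7 by 0.50 and 0.24 and Bst2 by -0.03 and 0.01 on the log2 scale.

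Genes of MHC class I antigen presentation were higher in the cGAMP members, with 12 of 12 above the PBS members and 9 past 2-fold. The median log2 ratio was 1.41 in the members and 1.36 in the other cells, where 9 of 12 also passed 2-fold. The shares of all genes 2-fold higher were 2.08% and 1.71%. The heavy chain gene H2-K1 had 1075 CPM in the PBS and 3606 CPM in the cGAMP members, and B2m, the light chain, had a log2 ratio of 1.60 (1.56 to 1.64). Tap1, the peptide transporter, had 1.22, and the immunoproteasome subunits Psmb8 and Psmb9 1.37 and 1.43. H2-T23, a non-classical class I gene, had 2.44 (2.28 to 2.59) in the members against 2.89 (2.84 to 2.94) in the other cells.

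Among chemokine, adhesion and complement genes, 9 of 14 were 2-fold higher in the cGAMP members and 10 of 17 in the other cells. The shares of all genes were 2.08% and 1.71%. The medians of the list were 1.53 and 1.55. Ccl5, which attracts T cells and monocytes, had 10 UMIs in 3 of the 280 PBS members and 965 UMIs in 42 of the 106 cGAMP members, at 1.40 CPM (0.670 to 2.57) and 300.4 CPM (282 to 320). Its log2 ratio was 7.75 (6.86 to 8.81) in the members and 6.09 (5.97 to 6.21) in the other cells, and over the alternatives it lay between 6.61 and 10.26 in the members. Cxcl9, a chemokine induced by interferon-γ, had 50.3 CPM (45.2 to 55.8) and 747 CPM (717 to 777) in the members and 137 and 1173 CPM outside. In the cGAMP library both chemokines were lower in members than in other cells, with log2 ratios of -0.64 and -0.65. After thinning, 22.1% of cGAMP members had Ccl5 and 53.8% had Cxcl9. Lyz2, a myeloid gene, was found in 6.73% of the same members. The part of RNA from other cells in these shares was not tested. The complement genes Serping1 and Cfb had log2 ratios of 5.51 and 3.99, and Ubd, an inflammatory ubiquitin-like protein, 3.68 with UMIs in 16 cGAMP members. The ratio of Ubd lay between 2.72 and 6.68 over the alternatives. Cxcl10 had 0.82 in the members and 1.41 outside, but -0.31 in the top 5% and -0.29 without cells with a UMI of Mki67 or Top2a. Cxcl1 had -0.44 in the members and 0.56 outside, and Ccl2 was also at a lower level in the cGAMP members (9.03 CPM) than in the PBS members (18.9 CPM).

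**Figure D4:**
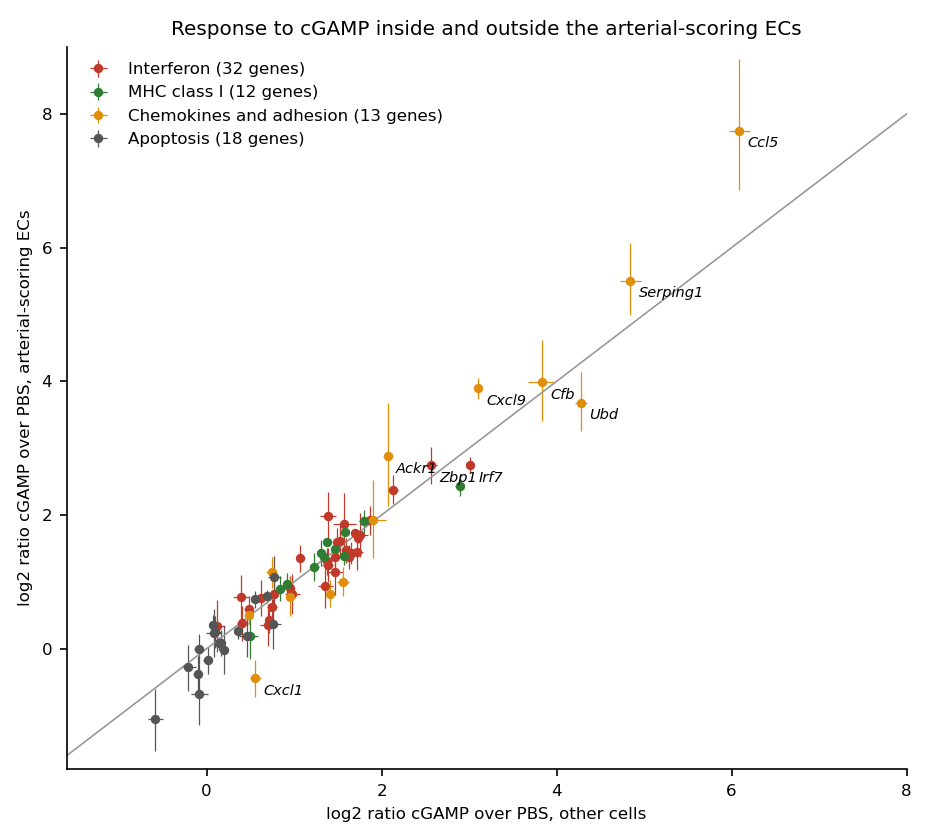
Log2 ratio of CPM, cGAMP over PBS, in the arterial-scoring ECs (vertical) against the other ECs (horizontal) for genes with 20 CPM in both comparisons, with exact conditional 95% intervals as bars and the line of equal ratios in grey. Interferon (red), MHC class I (green) and most chemokine genes (orange) lie above 0 on both axes, Ccl5 and Cxcl9 lie above the line, and most apoptosis genes (grey) lie within 1 of 0.

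Cell death and TNF response genes differed little between the members of the libraries. Of 20 apoptosis genes, Mlkl, the effector of necroptosis, was 2-fold higher with a log2 ratio of 1.08 (0.77 to 1.38), and the pro-apoptotic Bcl2l11 was 2-fold lower with -1.05 (-1.52 to -0.61). The median was 0.14 in the members and 0.10 in the other cells, where 19 genes of the list reached 20 CPM. Of 15 TNF and NF-kB genes, 2 were 2-fold higher in the members, namely Cebpb with 1.72 and Plaur with 1.06, which were also the 2 of 14 in the other cells. Across all genes 2.08% were 2-fold higher and 1.93% 2-fold lower in the members, and 1.71% were 2-fold higher in the other cells. Fas had 0.67 (0.25 to 1.08) in the members.

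Arterial genes of the cGAMP and PBS members differed in both directions. Of 26 other arterial genes 2 were 2-fold higher in the cGAMP members, against 2.08% of all genes. These were Mgp with a log2 ratio of 1.02 (0.45 to 2.69 over the alternatives) and Clu with 1.09. Another 4, Bmx, Dkk2, Cxcr4 and Fbln2, were 2-fold lower, against 1.93% of all genes. In the other cells 1 of 22 was 2-fold higher, Mgp with 1.17, and 2 were 2-fold lower, Cxcr4 and Unc5b. The shares of all genes there were 1.71% and 1.28%. Dkk2 had 92.2 CPM in the PBS and 34.5 CPM in the cGAMP members. The median of the list was -0.19 in the members and -0.16 in the other cells. In the score genes the differences were tied to the choice of cells and are given as a description. Stmn2 had a log2 ratio of -1.43, Nts -0.94, Mal -0.77 and Gja4 -0.75, while Gja5 had -0.17 and Hey1 0.04. Among Notch genes, Egfl7, a secreted endothelial protein, passed 2-fold with 1.02 in the members against 0.83 outside.

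Part of the cell cycle genes were lower in the cGAMP members. Of 12 proliferative genes 8 lay below the PBS members and 4 above, and 7 were 2-fold lower and 0 were 2-fold higher. In the other cells 16 reached 20 CPM, of which 10 lay below and 6 above, with 3 2-fold lower and 0 2-fold higher. Across all genes 1.93% were 2-fold lower in the members and 1.28% in the other cells. Over these unlike sets of genes, the median log2 ratio was -1.25 in the members and -0.54 in the other cells. Mki67 had -2.66 (-3.26 to -2.10) in the members and -1.22 (-1.28 to -1.17) outside. Birc5, the mitotic protein survivin, had -2.69 in the members and -0.82 outside. The histone genes Hist1h1b and Hist1h2ap were at 239 and 179 UMIs in the PBS members and at 0 in the cGAMP members, which, with 3 counts taken as the limit of a group at 0, puts their log2 ratios at -5.16 or below and at -4.74 or below. In the top 20% of cells these ratios were -1.22 and -1.20. Over the alternatives the ratio of Mki67 lay between -3.79 and -1.64 and that of Birc5 between -4.38 and -1.20. The cGAMP members with a UMI of Mki67 numbered 5 of 106, and 1 cell held 42.9% of its 28 UMIs.

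Genes whose ratio differed most between members and other cells belonged partly to the tip-like list. Angpt2 had 103 CPM (95.2 to 110) in the PBS and 387 CPM (366 to 409) in the cGAMP members, against 403 and 569 CPM in the other cells. The log2 ratio was 1.92 (1.78 to 2.05) in the members and 0.50 (0.48 to 0.52) outside. It was 1.12 in the top 20% of cells and 1.26 with cells thinned before scoring. Pgf went in the other direction, from 46.2 to 4.05 CPM in the members and from 254 to 157 CPM outside, but its ratio depended on how the cells were chosen. Chga and Gal, which encode chromogranin A and galanin, had 211 and 334 UMIs in the PBS members with 67.8% and 74.9% of them in 1 cell, and 2 UMIs each in the cGAMP members. With so few UMIs no fold is given for them.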

How the data were processed

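Droplet-based scRNA-seq libraries of sorted LLC tumour ECs were analysed, 1 from a PBS-treated and 1 from a cGAMP-treated mouse. Per the labels and methods, the authors aligned reads to mm10 with Cell Ranger 3.0.0 and, with Seurat 3.1.1, removed cells with under 500 genes or over 10% mitochondrial UMIs, genes in under 3 cells, and clusters without Pecam1. The values deposited by the authors were scaled to 10000 UMIs per cell, increased by 1 and turned into natural logs. Inverting the log and dividing by the step of each cell gave whole UMIs, to within 0.01, for 100% of the non-zero values. No doublet caller was run, and no doublet removal is stated in the sources used here. The labels and the methods name different versions of the library kit, and a supplementary legend gives a shorter interval after injection than the methods.

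Members were the 10% of pooled cells (386 of 3857) with the highest mean natural log value of the 8 genes. UMIs were summed over members or other cells of a library and scaled to CPM (Python 3.11.15, numpy 2.4.6, scipy 1.17.1, pandas 2.3.3). Thinning used random seed 1. The ratio and interval code was tested on simulated data. Named genes were those of the score and of the lists, the 12 largest and 12 smallest ratios in each comparison, and the 6 in each direction whose response differed most between members and other cells. The result of 1 named gene is not reported here. The members and lists were chosen with earlier results of these data known. Alternatives changed the choice of cells, the score, depth, cell filters, scaling and the limit of 20 CPM.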

Additional observations from a re-analysis of the deposited data

Results flagged for a closer look

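Named genes were looked for whose cGAMP to PBS log2 ratio had opposite signs in the arterial-scoring ECs and in the other ECs. Counting intervals had to exclude 0 on both sides, and 20 CPM had to be reached in both comparisons. The 2 ratios also had to lie at least 1 log2 unit apart. Of the named genes given here, 7 met these limits. The difference was not tested, since each condition is 1 library. The named genes include those chosen because their response differed most between members and other cells. The count therefore depends in part on that choice, and it was not made over all genes. The ratio was above 0 in the members and below 0 outside for Rnd3, a small GTPase (1.36 against -0.43), Ramp3, a co-receptor of adrenomedullin (0.88 against -0.71), Adam12, a metalloprotease (0.65 against -0.79), and Nid2, the basement membrane protein nidogen 2 (0.45 against -0.71). It was below 0 in the members and above 0 outside for Bst1 (-1.11 against 0.07), Nr2f2 (-0.95 against 0.26) and the proteoglycan Bgn (-0.91 against 0.43). Over the alternatives the ratio in the members turned for Ramp3 (-0.27 in the top 5%, -0.02 with 5 score genes) and Bgn (0.72 without cells with Ptprc or mural UMIs, 0.33 with up to 5% mitochondrial UMIs). It kept its sign for the other 5, but was 0.21 for Rnd3 in the top 20% and 0.34 with cells thinned before scoring, and lay between 0.19 and 1.08 for Adam12, 0.07 and 0.80 for Nid2, -2.66 and -0.78 for Bst1, and -1.38 and -0.38 for Nr2f2. The ratios outside were not compared over the alternatives. In the cGAMP members 1 cell held 54.1% of the 37 UMIs of Bgn, 22.4% of the 67 of Rnd3 and 19.1% of the 246 of Ramp3.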

How the results depend on the processing

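With 1 library per condition no replicate could be left out. No paired analysis was possible because each condition is 1 library and the labels carry no replicate numbers. Under every alternative run, the medians of the other arterial genes and of the interferon list stayed within intervals taken from the ranked genes. These 95% intervals cover spread between genes and are wide, at 0.75 to 2.19 (PBS) and 0.82 to 2.02 (cGAMP) for the arterial list. For the interferon list inside the members it was 0.82 to 1.61. The arterial medians of 1.43 and 1.49 fell to 0.84 and 0.99 in the top 20% and reached 1.82 and 1.74 in the top 5%. The interferon median lay between 1.05 and 1.55. The share of cells chosen was 6.12% (PBS) and 2.91% (cGAMP) for the top 5% and 21.9% and 16.3% for the top 20%, and a top 10% taken within each library fixes it. Genes 2-fold higher in members of both libraries numbered 224 (top 5%), 58 (top 20%), 244 (5 CPM) and 93 (50 CPM). Genes 2-fold lower numbered 13 (top 20%), 76 (cells thinned before scoring), 78 (mitochondrial share up to 5%), 320 (5 CPM) and 55 (50 CPM). In the cGAMP members, 220 (5 CPM) and 81 (50 CPM) genes were higher, and 192 (without cells with Mki67 or Top2a), 398 (5 CPM) and 41 (50 CPM) lower. Of the 86 named genes at least 2-fold apart between cGAMP and PBS members, 6 changed sign under an alternative, namely Pgf (0.43 chosen within each library, 0.011 genes scaled to unit SD, 0.074 thinned, 0.080 mitochondrial limit), Gal (1.18 unit SD, 1.46 without Nts, 1.31 with 5 score genes), Ackr1 (-0.67 top 5%), Chga (0.65 top 20%), Acta2 (1.01 without cells with Ptprc or mural UMIs) and Cd74 (-0.97 without cells with Mki67 or Top2a). So did 61 of the 203 under 2-fold, Ramp3 and Bgn among them. Between members and other cells it was 1 of 77, Cenpe (0.032 without cells with Mki67 or Top2a), and 8 of 193 under 2-fold. Hbb-bs and Hist1h1b had too few UMIs for a direction under some alternatives, among them leaving out cells with Mki67 or Top2a. The causes were not tested. Leaving out the highest cell of each gene was chosen after seeing the data, and single genes were not run under other CPM limits. Of the values of named genes under alternatives, 7076 lay within 1 log2 unit of the value reported and 150 moved further. Another 12, of genes reported as at least 2-fold apart, moved further and changed sign. Scores without Nts shared 90.2% of the members and the 5-gene score 87.3%. With cells thinned to 5000 UMIs before scoring, 321 cells were shared, which were 85.1% of the cells so chosen and 83.2% of the members. Counting error limits genes with few UMIs in the 106 cGAMP members.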
